A study of Mus musculus with 12 samples.

Results

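The 86 entries described here are the 5p and 3p arms of 43 mouse miRNA hairpins, out of 689 miRNA entries in the deposited table. They were chosen by name: an entry counted when it ended in -5p or -3p, unless its hairpin number was 1000 or more or belonged to one of the clusters and families set aside in a fixed list of numbers. No measured value entered the choice, and both arms were listed for all 43 hairpins. The small RNAs came down with AGO2 from mouse embryonic stem cells that carry an HA-Flag-AGO2 transgene under doxycycline control, and the anti-FLAG M2 antibody was used. The 12 libraries form 4 groups of 3: the nuclear fraction with doxycycline (2.5 ug/ml for 15 h before harvest), the total fraction given the same, and both fractions of cells that got none. All of them came from the same transgenic cells, grown in LIF, and the cells keep their own AGO2, which has no tag. The labels name the second fraction "Total" while the protocol speaks of a cytoplasmic one, so it is called the total fraction here.

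A miRNA hairpin is cut by Drosha and Dicer into a short duplex whose 2 strands are the 5p and the 3p arm. AGO2 keeps 1 strand of each duplex as its guide and discards the other, and the strand kept sets which target RNAs are bound, since pairing is led by the seed (bases 2 to 8). The end that opens more easily and the first base of a strand are known to influence which strand is kept. In older miRBase names a star marks a strand seen as clearly the lesser one, and the suffixes -5p and -3p were given where neither strand stood out. That makes the hairpins described here ones in which both arms can be expected among AGO2 reads, and arm choice can be followed through the share of a hairpin's reads that fall on each arm.

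Sequences are shown for 4 hairpins: miR-296, whose 3p arm was the most abundant of the 86 arms with doxycycline, miR-125a and miR-582, whose larger arm differed with doxycycline, and miR-324, which had a larger arm in 1 fraction only. The 5p arm and then the 3p arm are in capitals, 5′ to 3′, as RefSeq gives the hairpins on GRCm38.p6. miR-296 lies at chr2:174267047-174267125 on the minus strand with no gene around it on that strand, miR-125a at chr17:17830812-17830879 on the plus strand in an intron of Spaca6, miR-582 at chr13:109324744-109324824 on the plus strand in an intron of Pde4d, and miR-324 at chr11:70012043-70012131 on the plus strand in an exon of a Dvl2 transcript.
miR-296: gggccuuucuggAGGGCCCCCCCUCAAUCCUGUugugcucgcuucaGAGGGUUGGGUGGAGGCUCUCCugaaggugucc
miR-125a: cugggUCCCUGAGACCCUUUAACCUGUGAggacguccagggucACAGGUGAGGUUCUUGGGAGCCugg
miR-582: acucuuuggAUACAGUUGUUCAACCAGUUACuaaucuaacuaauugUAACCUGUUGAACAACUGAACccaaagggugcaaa
miR-324: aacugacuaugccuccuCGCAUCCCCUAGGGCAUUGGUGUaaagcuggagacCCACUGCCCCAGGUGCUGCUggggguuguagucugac

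Because the 2 arms of a hairpin carry different seeds, a change of arm is a change of seed. The mature arms of these and 2 further hairpins are given with the seed in capitals, to show which seeds stood against each other. A RefSeq sequence was found by name for 74 of the 86 arms and for both arms of 35 hairpins.
miR-296-5p: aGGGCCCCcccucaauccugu
miR-296-3p: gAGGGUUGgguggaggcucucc
miR-335-5p: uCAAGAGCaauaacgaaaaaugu
miR-335-3p: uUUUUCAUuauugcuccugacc
miR-125a-5p: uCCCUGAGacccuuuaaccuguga
miR-125a-3p: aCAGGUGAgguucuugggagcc
miR-582-5p: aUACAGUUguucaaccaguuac
miR-582-3p: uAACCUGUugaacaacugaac
miR-324-5p: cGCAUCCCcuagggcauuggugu
miR-324-3p: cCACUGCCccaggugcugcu
miR-362-5p: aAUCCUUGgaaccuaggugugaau
miR-362-3p: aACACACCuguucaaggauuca
miR-125a-5p shares its seed with miR-125b-5p (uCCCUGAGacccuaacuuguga), the lin-4 seed, and no other pair of arms at a mean count of 10 shared one among the 74. The other shared seeds joined the 5p arms of miR-465a, miR-465b and miR-465c, their 3p arms, and the 3p arms of miR-883a and miR-883b, all with few reads.

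The table holds 1 value per entry and group, the authors' mean count over the libraries, so no difference below has a replicate check. Summed over entries, libraries of cells with doxycycline had a mean of 400794 (nuclear) and 539627 (total) miRNA reads, and those of cells without it 36330 (nuclear) and 16053 (total). Intervals are 95% intervals on the reads of a group (the mean times 3) and cover counting error only, since PCR reads without molecular identifiers are not independent molecules. With doxycycline the 86 arms held 0.780% (Wilson interval 0.765 to 0.796) of the nuclear reads and 0.784% (0.771 to 0.798) of the total reads. Without it they held 1.30% (1.24 to 1.37) and 1.07% (0.979 to 1.16). These shares depended on the single entry miR-805. With miR-805 left out of the totals, they were 0.807% nuclear and 0.791% total with doxycycline, against 3.59% and 1.60% without it. A mean count of at least 10 was reached by 36 arms in each fraction with doxycycline, and by 10 nuclear and 3 total arms without it. A listed 0 allowed a level of up to 2.50 CPM (miRNA reads scaled to a common total) in nuclear and 1.85 CPM in total libraries of induced cells. In those of cells without induction it allowed up to 27.5 CPM and 62.3 CPM. All CPM levels given here count miR-805 in the total. For 22 entries of embryonic stem cell miRNA clusters, the summed share was 65.8% of nuclear and 68.9% of total reads with doxycycline, against 14.3% and 32.3% without it. Markers of neural (0.784% and 0.585% with doxycycline, 0.443% and 0.748% without), blood (0.849% and 0.729%, against 1.05% and 1.19%), fibroblast (0.0955% and 0.124%, against 0.147% and 0.263%), liver (0.0103% and 0.0109%, against 0.627% and 0.463%) and muscle cells (0.00299% and 0.00111%, against 0.0789% and 0.0270%) took small shares, given nuclear before total each time. The part of these differences in the results below was not tested.

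With doxycycline, the most abundant of the 86 arms was miR-296-3p, with a level of 1449 CPM in nuclear and 1597 CPM in total libraries, rank 65 of all entries over both columns. miR-296 is known in mouse embryonic stem cells for sites in the coding sequence of Nanog, a role not assigned here to either arm. miR-335-5p, from an intron of the imprinted gene Mest (hairpin at chr6:30741299-30741396), followed at 966 and 1008 CPM. miR-126-3p, known from endothelial cells, had 380 and 696 CPM, and miR-296-5p had 594 and 473 CPM. miR-335-3p had 553 CPM and 485 CPM, so both arms of miR-296 and of miR-335 stood among the 5 most abundant. miR-151-5p (368 and 410 CPM), the lin-4 relative miR-125a-5p (310 and 301 CPM) and miR-340-5p (301 and 204 CPM) completed the first 8. miR-151 lies in an intron of Ptk2, the focal adhesion kinase gene, at chr15:73254815-73254882.

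Arm choice was read as the 5p share of a hairpin's reads, in hairpins with a mean count of at least 10 over both arms. With doxycycline 25 nuclear and 22 total hairpins met that minimum, and without it 12 and 6 did. An arm was called the larger one where the exact interval of its share lay wholly above 50%. In the nuclear fraction with doxycycline the 5p arm was larger in 14 hairpins, the 3p arm in 8 and neither in 3. Total libraries with doxycycline gave counts of 12, 6 and 4. Of all hairpins with both arms listed, 96.5% had a larger arm in these nuclear and 97.1% in these total libraries. Without doxycycline the 5p arm was larger in 5, the 3p arm in 4 and neither in 3 hairpins of the nuclear fraction, and in 1, 4 and 1 hairpins of the total fraction (backgrounds 79.1% and 86.8%).

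**Figure D1:**
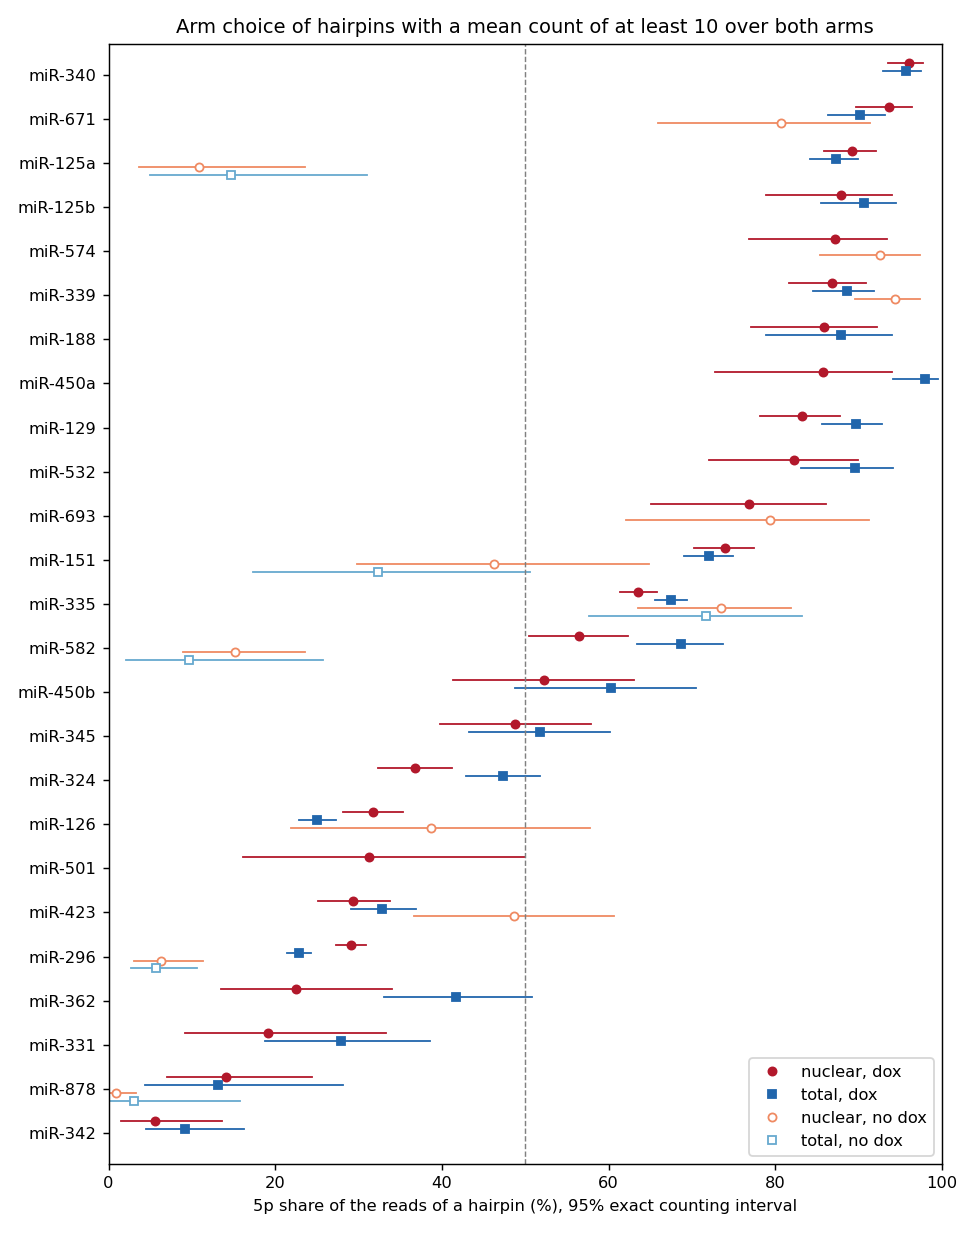
5p share of the reads of each hairpin (x axis, percent; the dashed line marks 50%) with its exact 95% counting interval, for the 25 hairpins that reached a mean count of 10 over both arms; columns below that minimum are not drawn. Filled points are cells with doxycycline (circles nuclear, squares total), open points cells without it; miR-125a and miR-582 lie on opposite sides of the line with and without doxycycline.

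With doxycycline, most of these hairpins had at least 10% of their reads on each arm. Whether all these reads were bound to AGO2 was not tested. The less read arm held a median of 19.1% of a hairpin's reads in the nuclear fraction (range 3.98% to 48.8% over 25 hairpins) and 18.0% in the total one (2.04% to 48.3% over 22), both with doxycycline. It held over 25% in 10 hairpins of each fraction, and under 10% in 3 nuclear and 5 total ones. Hairpins whose arms are named with and without a star had medians of 4.27% and 5.80% (92 hairpins in each fraction), and star names were given for just such a difference. Without doxycycline the medians were 17.3% nuclear (12 hairpins) and 12.2% total (6 hairpins) for the 5p and 3p pairs, but 28.0% (64 hairpins) and 24.3% (58 hairpins) for the star pairs. The medians of the star pairs were thus higher without doxycycline than with it. The medians of the 5p and 3p pairs depended on the minimum: at 30 counts over both arms they were 27.6% with and 6.33% without doxycycline in the nuclear fraction, and 17.8% against 5.73% in the total fraction. Both rest on few and partly different hairpins. The other listed pairs named 5p and 3p had 21.9% with and 23.2% without doxycycline (nuclear) and 12.7% against 25.1% (total). The difference between the kinds of hairpin was not tested.

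**Figure D2:**
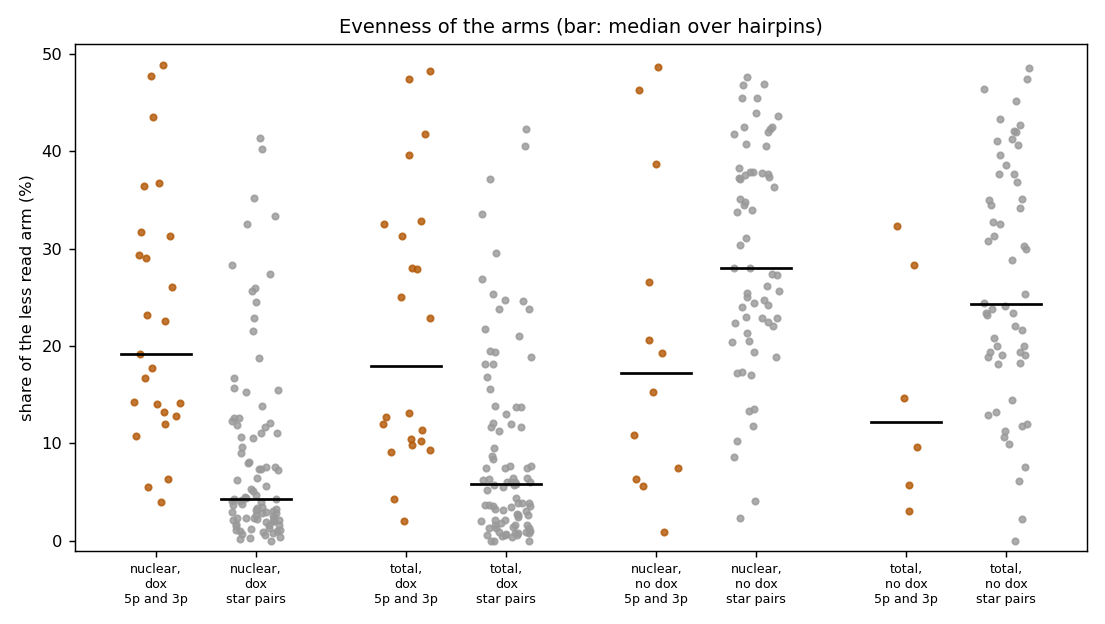
Share of the less read arm (y axis, percent) for each hairpin with a mean count of at least 10 over both arms, for the pairs named 5p and 3p described here and for star pairs, in the 4 columns. Bars mark medians: 19.1% and 18.0% for 5p and 3p pairs against 4.27% and 5.80% for star pairs with doxycycline.

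At one end stood hairpins with nearly 1 arm alone. miR-340, in an intron of Rnf130, had 120.7 and 5 mean counts on its 5p and 3p arm in the nuclear fraction (96.0% 5p) and 110 and 5 in the total fraction (95.7%) with doxycycline. miR-671, known to guide AGO2 cleavage of the antisense circular RNA of Cdr1, had 73.7 on 5p and 5 on 3p in the nuclear fraction (93.6%) and 94.7 and 10.3 in the total fraction (90.2%). miR-125a had 89.2% 5p in the nuclear fraction and 87.3% in the total one. Its relative miR-125b had 88.0% and 90.7%, for which an entry miR-125b* is listed beside miR-125b-3p and was not counted. If miR-125b* holds 3p reads as well, these 5p shares are too high. miR-339 (86.8% and 88.6%), miR-188 (85.9% and 88.0%), miR-129 (83.2% and 89.7%) and miR-532 (82.3% and 89.6%) also favoured 5p in both fractions. On the 3p side, miR-342, hosted by Evl, had 5.56% 5p in the nuclear fraction and 9.17% in the total one, and miR-331 had 19.1% and 27.9%.

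Closer to balance, miR-296 had 238 and 580.7 mean counts on 5p and 3p in the nuclear fraction and 255 and 861.7 in the total fraction with doxycycline. Its 5p share was 29.1% (27.3 to 30.9) nuclear and 22.8% (21.4 to 24.3) total. The 3p arm was the larger one in both, and the 5p arm still ranked among the 4 most abundant arms. miR-335 had 387 and 221.7 mean counts in the nuclear and 544 and 261.7 in the total fraction, or 63.6% (61.3 to 65.8) and 67.5% (65.6 to 69.4) 5p. miR-423, from an intron of Nsrp1, favoured 3p with 43 and 103.7 mean counts (29.3% 5p) in the nuclear and 63.7 and 130 (32.9%) in the total fraction. miR-345 stood at 48.8% and 51.7% 5p, and miR-450b at 52.3% and 60.4%. Neither arm of miR-345 or miR-450b was the larger one beyond counting error in either fraction. In the nuclear fraction, miR-501 also had no larger arm (31.3% 5p), and it was below the minimum in the total fraction.

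**Figure D3:**
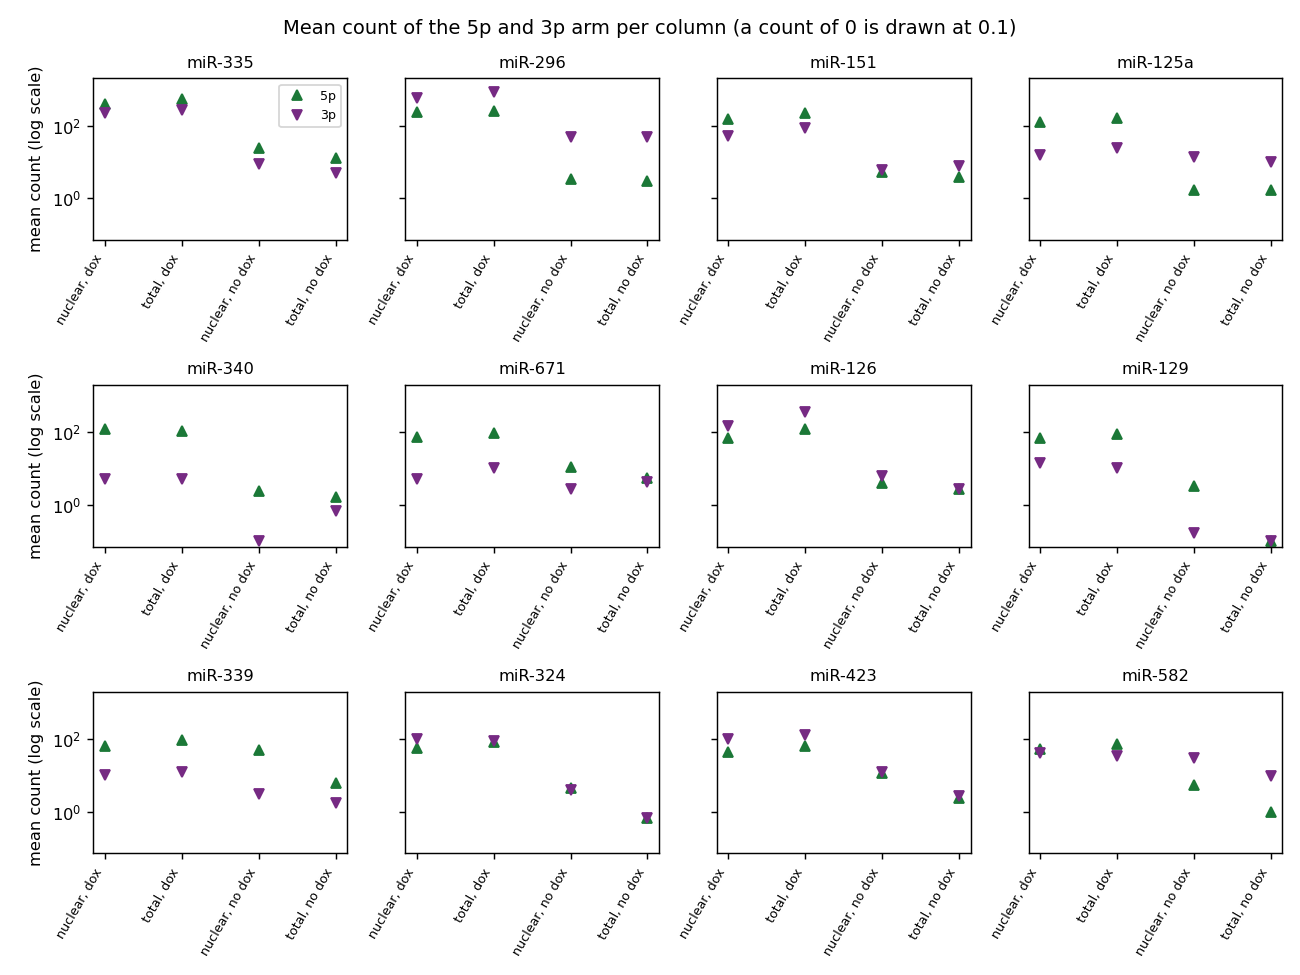
Mean count of the 5p arm (upward triangles) and the 3p arm (downward triangles) on a log scale in the 4 columns, for the 12 hairpins with a mean count of at least 100 over both arms with doxycycline; no error is drawn, as the table gives 1 mean per group. In miR-125a and miR-582 the 3p arm lies above the 5p arm in both columns without doxycycline and below it in both with doxycycline.

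The nuclear and total fractions with doxycycline were compared to ask whether nuclear AGO2 holds the same arm of each duplex. Of the 22 hairpins that met the minimum in both fractions, 18 had the same larger arm in both, 12 the 5p and 6 the 3p arm, and 2 had none in either. The other 2, miR-324 and miR-362, had the 3p arm as the larger one in the nuclear fraction and neither in the total fraction, and 0 had opposite arms. Over all 139 hairpins compared, 94.2% had the same larger arm in both fractions and 1.44% opposite ones. The comparison does not depend on library scaling, since both arms come from the same column. Whether the total fraction contains the nuclei was not settled, and if it does, differences between the columns are smaller than those between compartments.

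miR-324, known for acting on the Hedgehog pathway in cerebellar progenitors, had 57.7 and 99.3 mean counts on 5p and 3p in the nuclear fraction, against 80.7 and 89.7 in the total fraction. Its 5p share was 36.7% (32.4 to 41.3) nuclear and 47.4% (43.0 to 51.8) total, a shift of -0.63 (-1.01 to -0.25) in the log2 ratio of 5p to 3p, nuclear over total. miR-362, hosted with miR-188, miR-501 and miR-532 by introns of Clcn5 (miR-362 at chrX:7241982-7242046), had 5.33 and 18.3 mean counts in the nuclear and 17.7 and 24.7 in the total fraction. Its 5p share was 22.5% (13.5 to 34.0) nuclear and 41.7% (33.0 to 50.8) total, a log2 shift of -1.30 (-2.35 to -0.29). miR-450a, from the X-linked cluster that also holds miR-503, had 14 and 2.33 mean counts in the nuclear and 48 and 1 in the total fraction. Its 5p share was 85.7% and 98.0%, and its log2 shift of -3.0 (-5.62 to -0.77) rests on 7 and 3 reads of the 3p arm over each group. The 5p sequence of miR-450a lies at 2 loci, and no sequence was matched for its 3p entry. The 5p value may thus hold reads of more gene copies than the 3p value. The same limit applies to miR-129 and miR-125b. With the reads without doxycycline subtracted, the miR-450a shift was -1.84 and no longer passed.

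A shift was called where it was at least 2-fold and its interval left out 0. Of the 22 hairpins 2 were called, miR-450a and miR-362, both towards 3p, against a background of 18.0% of all 139 hairpins compared. At a minimum of 30 counts over both arms 0 hairpins were called, as miR-450a and miR-362 no longer met it in the nuclear fraction. Counting intervals alone left out 0 in 8 hairpins, 2 towards 5p and 6 towards 3p (background 46.0% of 139). The median size of the shift over all 22 was 0.47 on the log2 scale, against 0.51 over all 139. Well-read hairpins among the 8 moved by less than 2-fold. miR-296 and miR-126 shifted towards 5p by 0.47 (0.30 to 0.64) and 0.47 (0.17 to 0.77), and miR-335 towards 3p with a shift of -0.25 (-0.44 to -0.06). miR-129, a neuronal miRNA with 2 gene copies, shifted by -0.81 (-1.54 to -0.02) and miR-582 by -0.76 (-1.26 to -0.26). In 6 of the 8, all but miR-324 and miR-362, the arm less read in the total fraction held a larger share in the nuclear fraction. That arm was picked in the total column, which is itself compared, so the count is in part set by the choice. It was not taken over all hairpins. miR-126 had 31.7% 5p (28.2 to 35.4) in the nuclear and 25.1% (22.9 to 27.3) in the total fraction.

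The shift of miR-582 depended on the reads present without doxycycline. Its arms had 52.3 and 40.3 mean counts (56.5% 5p) in the nuclear and 74 and 33.7 (68.7%) in the total fraction with doxycycline. With the reads without doxycycline subtracted, the 5p share was 81.5% nuclear and 75.0% total and the shift turned to 0.55. By the same subtraction the shift of miR-125a became 3.00 and that of miR-339 -1.94, and both then passed the 2-fold rule. So did miR-331 at -1.61 (interval up to -1.02), with no nuclear 5p read left and that 0 set to 3 reads over the group. miR-125a had 124.3 and 15 mean counts in the nuclear fraction with doxycycline, against 1.67 and 13.7 without it, so its nuclear 3p count was nearly as high without doxycycline as with it. The library sizes differ between these columns, and an unscaled subtraction is 1 possible correction.

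The comparison of doxycycline with none asks how arm choice among AGO2 reads differs from that among reads present without the induced protein. In the nuclear fraction 12 hairpins could be compared and 8 were called shifted, 6 towards 5p and 2 towards 3p, against a background of 83.5% of 91 hairpins. In the total fraction 4 of 6 were called, all towards 5p, against 81.3% of 75 hairpins. The share called among these hairpins was below that background, which was mostly star pairs (58 of 64 nuclear and 49 of 57 total ones called). Of the other listed pairs named 5p and 3p, 10 of 15 nuclear and 8 of 12 total ones were called. The lower share was thus not particular to the hairpins described here. In 2 hairpins, miR-125a and miR-582, the larger arm itself was the opposite one, and it was so in both fractions. Over all hairpins with both arms listed, the larger arm was the opposite one in 27.5% of 91 in the nuclear and 30.3% of 76 in the total fraction, and in both fractions in 17 of the 72 that met the minimum in all 4 columns, 13 of them star pairs.

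In miR-125a the 5p arm had 124.3 mean counts in the nuclear fraction with doxycycline against 1.67 without it, while the 3p arm had 15 against 13.7. The total fraction had 162.3 against 1.67 for 5p and 23.7 against 9.67 for 3p. The 5p share was 89.2% (85.9 to 92.0) with and 10.9% (3.62 to 23.6) without doxycycline in the nuclear fraction, and 87.3% (84.2 to 89.9) with and 14.7% (4.95 to 31.1) without it in the total fraction. The log2 shifts were 6.09 (4.63 to 7.83) nuclear and 5.31 (3.85 to 7.07) total, the largest of the 12 and of the 6 hairpins compared. The lin-4 seed CCCUGAG was thus carried by most miR-125a reads with doxycycline and by few without it.

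In miR-582 the 5p arm had 52.3 mean counts in the nuclear fraction with doxycycline against 5.33 without it, and the 3p arm 40.3 against 29.7. For total reads 5p had 74 against 1 and 3p 33.7 against 9.33. The 5p share was 56.5% (50.4 to 62.4) with and 15.2% (8.97 to 23.6) without doxycycline in the nuclear fraction, and 68.7% (63.4 to 73.7) against 9.68% (2.04 to 25.8) in the total fraction. The log2 shifts were 2.85 (1.98 to 3.79) and 4.36 (2.60 to 6.74). For both hairpins the intervals without doxycycline did not overlap those with it, which follows from their being picked for opposite larger arms. The 2 fractions lay on the same side.

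miR-151 and miR-296 also shifted towards 5p in both fractions without a change of the larger arm to the opposite one. miR-151 had 147.7 and 52 mean counts on 5p and 3p in the nuclear fraction with doxycycline against 5.17 and 6 without it, or 74.0% (70.2 to 77.4) against 46.3% (29.8 to 64.9) 5p. The total fraction gave 72.0% (69.0 to 74.9) against 32.4% (17.4 to 50.5), with log2 shifts of 1.72 (0.58 to 2.78) nuclear and 2.43 (1.31 to 3.63) total. The miR-296-5p arm had 238 mean counts against 3.33 in the nuclear and 255 against 3 in the total fraction, and the 3p arm 580.7 against 49.3 and 861.7 against 49.3. The 5p share of miR-296 was 29.1% against 6.33% (3.08 to 11.3) in the nuclear and 22.8% against 5.73% (2.65 to 10.6) in the total fraction, with log2 shifts of 2.60 (1.67 to 3.70) and 2.28 (1.31 to 3.45). In miR-296 the arms were therefore more even with doxycycline than without it, and in miR-125a the arm that was the main one with doxycycline was the small one without it.

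Towards 5p in the nuclear fraction, miR-878 (4.16, 1.86 to 7.41) and miR-671 (1.81, 0.23 to 3.24) were also called. miR-878, from an X-linked cluster near Fmr1 known for expression in testis, kept 3p as its larger arm, with 3.33 and 20.3 mean counts on 5p and 3p with doxycycline against 0.667 and 72.7 without it. Among total reads miR-878 had 1.67 and 11 against 0.333 and 10.7, and its shift of 2.28 (-1.02 to 7.88) was not called. Towards 3p, miR-339 had 65.7 and 10 mean counts with doxycycline against 50.3 and 3 without it in the nuclear fraction, a shift of -1.35 (-2.65 to -0.19). miR-423 had 29.3% 5p with and 48.6% (36.7 to 60.7) without doxycycline in the nuclear fraction, a shift of -1.19 (-1.96 to -0.41). Intervals of miR-335, miR-126, miR-574 and miR-693 included 0 in the nuclear fraction. The 5p share of miR-335 was 63.6% with and 73.5% (63.6 to 81.9) without doxycycline there, and 67.5% against 71.7% (57.7 to 83.2) in the total fraction.

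The comparison was repeated on the main arm, taken as the larger arm with doxycycline in the other fraction so that its choice did not use the column compared. This step was added after the data had been seen. The arm is still one chosen for being larger with doxycycline, and both columns with doxycycline had the same larger arm in nearly all hairpins, so a higher share with doxycycline is in part set by the choice, and the counts are a description. In the nuclear fraction the main arm's share shifted up with doxycycline in 5 of 10 hairpins (miR-125a, miR-151, miR-423, miR-582 and miR-671) and down in 3 (miR-296, miR-339 and miR-878), at medians of 72.4% with and 67.4% without doxycycline. For total reads it shifted up in 3 of 6 and down in 1, miR-296, at medians of 74.6% and 52.0%. Over these hairpins and the star pairs together, 83.8% shifted up in the nuclear fraction and 79.7% in the total one. Star pairs alone shifted up in 57 of 64 and 48 of 58 hairpins, with medians of 96.1% against 61.9% and 95.8% against 62.3%.

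**Figure D4:**
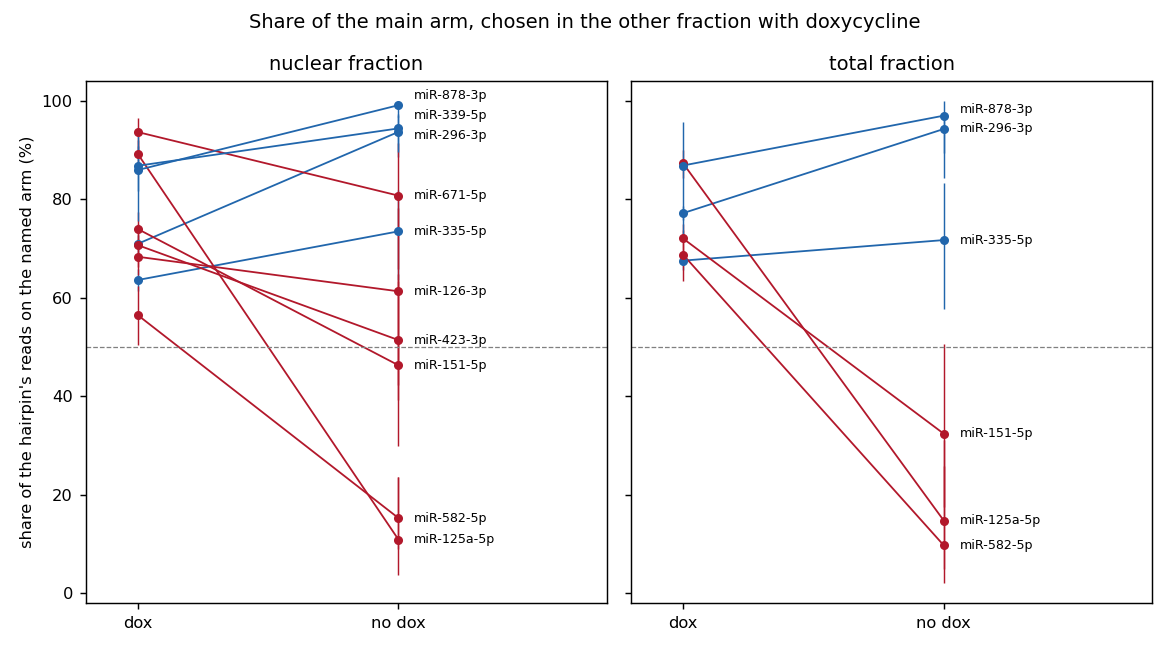
Share of a hairpin's reads on its main arm (y axis, percent, with 95% counting intervals) with and without doxycycline, in the nuclear fraction (left, 10 hairpins) and the total fraction (right, 6 hairpins); red lines have the higher share with doxycycline, blue lines without it. miR-125a-5p and miR-582-5p lie above 50% with and at or below 15.2% without doxycycline in both fractions, while miR-296-3p, miR-335-5p and miR-878-3p lie lower with doxycycline than without it.

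Without doxycycline, 0 of the 6 hairpins that could be compared were called shifted between nuclear and total reads, against a background of 15.3% of 72 hairpins. All 6 counting intervals included 0, and most were wide. The narrowest, of miR-335, ran from -1.07 to 1.29 on the log2 scale, and that of miR-878, with 0.909% 5p in the nuclear and 3.03% in total reads, from -6.06 to 4.16. All 6 intervals reached past 2-fold, so differences of that size were not detectable with these numbers of reads.

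Single arms were then compared as log2 folds of TMM-scaled mean counts, where at least 1 of the 2 columns had a mean count of 10. An arm was called where the fold was at least 2 and its counting interval left out 0. Of 38 arms between the nuclear and total fractions with doxycycline, 3 were higher and 2 lower in the nuclear fraction, against backgrounds of 10.3% and 3.97% of 378 entries. The median log2 fold of the 38 arms was 0.01, and that of all entries -0.04. Of 34 arms with a mean of 10 in both columns, 1 was higher (miR-878-3p) and 1 lower (miR-450a-5p), against 5.26% and 3.51% of 342 entries.

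miR-693-5p, from an intron of the exportin gene Xpo5, had 17.7 nuclear and 0.667 total mean counts, a log2 fold of 5.14 (3.22 to 8.22). miR-574-5p had 21.6 and 2.33 (3.62, 2.50 to 5.00), and miR-878-3p 20.3 and 11 (1.30, 0.67 to 1.96). All 3 were also present in the nuclear fraction without doxycycline, at 9, 26.8 and 72.7 mean counts, and with these reads subtracted 0 arms were called higher. The subtraction left 0 nuclear mean counts of miR-574-5p and miR-878-3p. It left 8.67 nuclear and 0 total mean counts of miR-693-5p, which was then below the minimum and not compared. miR-129-3p (0.85) and miR-450b-3p (0.74) lay within 2-fold. Below the total fraction were miR-450a-5p at -1.36 (-1.90 to -0.86), with 14 and 48 mean counts, and miR-362-5p at -1.31 (-2.22 to -0.49), with 5.33 and 17.7. miR-126-3p, at 152.3 and 375.7 mean counts, had a log2 fold of -0.89 (-1.05 to -0.73), which reached 2-fold without scaling (-1.30). miR-125b-5p (-0.77, but -1.19 without scaling) and miR-532-5p (-0.47) lay within 2-fold.

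**Figure D5:**
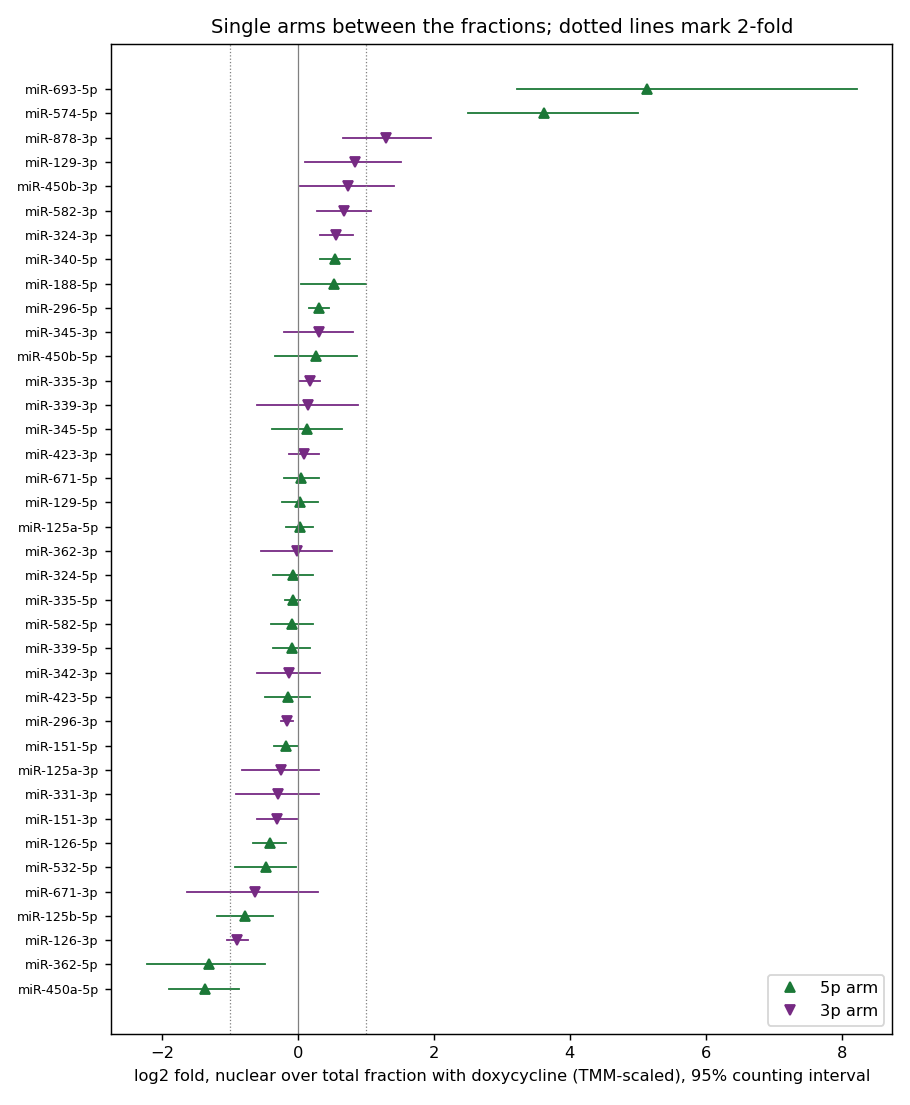
Log2 fold of each tested arm between the nuclear and the total fraction with doxycycline (x axis, TMM-scaled mean counts, lines are 95% counting intervals; dotted lines mark 2-fold), 5p arms as upward and 3p arms as downward triangles. Of 38 arms, 33 were not called, and both arms of miR-324, miR-335 and miR-296 lie within 2-fold.

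Between cells with and without doxycycline, 34 of 36 tested nuclear arms and all 36 tested total arms had more reads with doxycycline. So did 330 of 371 nuclear and 347 of 359 total entries over the whole series. Libraries with doxycycline held many more miRNA reads in all, so these counts largely follow the totals. Whether the totals differed through sequencing depth or through the pull-down was not tested, as only miRNA reads are listed. Relative to the typical miRNA, 3 nuclear arms were higher and 12 lower (backgrounds 27.8% and 32.9% of 371 entries), and 6 total arms were higher and 8 lower (25.3% and 28.4% of 359). The median log2 fold was -0.43 nuclear and 0.39 total, against 0.04 over all entries in each. The median over all entries was 4.01 nuclear and 5.05 total without scaling, so most arms called lower here gained fewer reads than other entries. Nuclear miR-878-3p (20.3 mean counts with and 72.7 without doxycycline) and miR-574-5p (21.6 and 26.8) had fewer reads with doxycycline. Among arms with a mean of 10 in both columns, 0 of 10 nuclear and 0 of 3 total arms were higher, and 7 and 1 were lower. Over all entries with this filter, 24.6% of 167 nuclear and 17.5% of the total ones were higher, and 44.9% and 45.3% were lower.

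The higher nuclear arms were miR-125a-5p at 2.25 (1.02 to 3.88), miR-296-5p at 2.19 (1.30 to 3.26) and miR-340-5p at 1.72 (0.67 to 3.05). miR-151-5p (0.87) and miR-335-3p (0.71) were within 2-fold by this scaling. The total arms called higher were miR-126-3p at 2.13 (1.15 to 3.34), miR-324-3p at 2.06 (0.20 to 5.12), miR-324-5p at 1.91 (0.04 to 4.96), miR-125a-5p at 1.60 (0.36 to 3.23) and miR-296-5p at 1.40. miR-129-5p had 91.7 mean counts with doxycycline and no read without it. Its log2 fold was 1.51 with that 0 set to 3 reads over the group, and its interval began at 1.20. All 3 nuclear and all 6 total arms called higher had a mean count below 10 without doxycycline, so they were compared only because they were high with it. By library totals without miR-805, total miR-125a-5p (0.96), miR-324-3p (1.43), miR-324-5p (1.28) and miR-129-5p (0.88) and nuclear miR-340-5p (0.82) no longer passed, and miR-126-3p was the 1 total arm still called. miR-324-5p was also lost with median-of-ratios factors (1.85) and by library totals (1.85).

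Among the lower arms were the 3p partners of miR-125a-5p and miR-582-5p. In the nuclear fraction miR-878-3p was lowest at -5.81 (-6.24 to -5.39), followed by miR-574-5p at -4.28, miR-125a-3p at -3.83 (-4.48 to -3.19), miR-339-5p at -3.58 and miR-582-3p at -3.52. The lowest total arms were miR-878-3p at -4.96, miR-671-3p at -3.76, miR-125a-3p at -3.72, miR-582-3p at -3.16 and miR-339-3p at -2.16. Without scaling, each of these but nuclear miR-878-3p and miR-574-5p turned to a gain (0.13 for miR-125a-3p, 0.38 for miR-339-5p and 0.44 for miR-582-3p in the nuclear fraction, and 0.04 to 2.85 in the total fraction).

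Without doxycycline, 6 of 10 tested arms were higher in the nuclear than in the total fraction and 0 lower (backgrounds 23.8% and 16.9% of 189 entries), but only 1 of 3 arms with a mean of 10 in both columns, miR-878-3p, and 0 of those 3 were lower (backgrounds 7.20% and 18.4% of 125 entries). miR-574-5p stood at 3.10 with 26.8 and 2.33 mean counts, miR-339-5p at 2.64 (1.93 to 3.44) with 50.3 and 6, miR-878-3p at 2.34, miR-423-5p at 1.90, miR-423-3p at 1.78 and miR-582-3p at 1.24. miR-296-3p had 49.3 mean counts in each fraction, at -0.43. Of the 3 arms called higher in the nuclear fraction with doxycycline, miR-574-5p and miR-878-3p were thus also higher in it without doxycycline.

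Hairpins that lie together did not all have the same larger arm with doxycycline. Opposite larger arms were found only in the nuclear fraction of the Clcn5 cluster, where miR-362 had 16 reads on 5p and 55 on 3p. In the total fraction miR-362 had no larger arm. In the introns of Clcn5, miR-188 and miR-532 favoured 5p with doxycycline while miR-362 favoured 3p in the nuclear fraction. Of 5 tested entries of that cluster (miR-500 included) 0 were higher and 1 was lower, miR-362-5p, in the nuclear over total comparison with doxycycline (median -0.34). In the cluster of miR-322 (the mouse miR-424), miR-503 and miR-450, 0 of 7 were higher and 1 lower, miR-450a-5p, at a median of 0.35, with miR-503 at 0.84 (0.51 to 1.18) and miR-322 at 0.35. miR-450a favoured 5p and its neighbour miR-450b neither arm. Of 29 entries near Fmr1 only miR-878-3p had a mean count of 10 in any column, and the 29 summed to 78.7 nuclear and 42 total mean counts with doxycycline and 107 and 15 without it. These lists were drawn up with earlier results of these data known.

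What the rule did not use was looked at in the sequences. Of the 22 hairpins with a larger arm in the nuclear fraction with doxycycline, both sequences were at hand for 16. The larger arm began with U in 6, A in 4, C in 3 and G in 3, and the other arm with U in 7, A in 4, C in 4 and G in 1. Among 1674 distinct mature mouse miRNAs in RefSeq, 41.0% begin with U, 25.6% with A, 20.7% with C and 12.7% with G. The larger arm held more A and U in its first 4 bases than the other in 5 hairpins, as many in 6 and fewer in 5. Among 12 hairpins of the total fraction, the larger arm began with U in 5 and the other arm in 7. Neither feature set the larger arm apart in these few hairpins. miR-296-3p, the most abundant arm, begins with G. Of the 43 hairpins 41 were located on GRCm38, 16 of them on the X chromosome, and 28 lay within a host gene.

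The remaining 18 hairpins stayed below a mean count of 10 over both arms in each column, the highest being miR-34b at 7.83 and the lowest miR-590 at 0.667. They were miR-34b, miR-139, miR-202, miR-338, miR-384, miR-465a, miR-465b, miR-465c, miR-509, miR-590, miR-615, miR-675, miR-743b, miR-764, miR-875, miR-876, miR-883a and miR-883b. Several are known from differentiated tissue, such as miR-338 in the nervous system and miR-34b in ciliated cells, and miR-675 is made from H19. miR-675-5p had 5 mean counts in the nuclear fraction with doxycycline, 0 in the total fraction with it, 3.67 in the nuclear fraction without it and 0.333 in the total fraction without it. No arm share was read from these hairpins. The values of 14 arms in 11 hairpins, miR-465a and miR-574 among them, were not whole after multiplication by 3, so reads may have been divided between entries and the values of such arms are uncertain one by one.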

How the data were processed

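The authors deposited expected counts (estimated counts per miRNA entry) as 1 mean per group over 3 libraries; that it is such a mean was inferred from the values, of which 78.4% to 91.4% per column were whole after multiplication by 3 (to within 1e-06). The tools named are bcl2fastq 2.17.1 and TopHat with the mm10 build, per the submitters' processing notes. The counting step is not given in the sources used here. Arms were paired by name. Reads over a group (mean times 3, rounded) gave Clopper-Pearson intervals for arm shares, exact conditional odds-ratio intervals for shifts of the 5p to 3p ratio, and binomial intervals for folds of counts scaled with TMM (edgeR 4.0.16, R 4.3.3). An entry at 0 was set to 3 reads over the group. The minimum was a mean count of 10, and a call needed a 2-fold difference. Wilson intervals were used for shares of all reads. edgeR's quasi-likelihood test needs values per library and was not run. Scripts ran under Python 3.11.15 with SciPy 1.17.1 for intervals, pandas 2.3.3, matplotlib 3.10.9 and numpy 2.4.6. The procedures were tried on simulated counts with counting (Poisson) error only. Those counts had no variation between libraries or from PCR, so the trial does not cover such variation. Sequences and locations came from RefSeq (GRCm38.p6) and GENCODE on GRCm38, the assembly of mm10. Alternatives were other scalings, minimums and floors, whole values only, and subtraction of the reads without doxycycline.

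Named were hairpins with a mean count of at least 100 over both arms with doxycycline, up to 5 called shifts each way per comparison, the 8 most abundant arms, up to 5 arms with the largest rise and fall whose interval left out 0 per comparison, and hairpins whose larger arm differed between columns. Other hairpins at the minimum were named after their values were seen. The members, lists and rules were chosen with earlier results of these data known. Whether the 3 libraries of a group came from separate cultures is not stated.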

Additional observations from a re-analysis of the deposited data

How the results depend on the processing

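No paired analysis was possible because the table holds 1 mean column per group, and for the same reason no library could be left out in turn. With a minimum of 30 counts over both arms the 5p arm was larger in 9 and the 3p arm in 4 hairpins of the nuclear fraction with doxycycline, the 5p arm in 2 nuclear hairpins without it, and in the total fraction without doxycycline the 5p arm in 0 and the 3p arm in 1; among hairpins with whole values only, the 5p arm was larger in 3 nuclear hairpins without doxycycline. At the minimum of 30 the hairpins called shifted numbered 0 (nuclear over total with doxycycline), 3 (nuclear, doxycycline over none) and 1 (total, doxycycline over none). With no minimum 14 were shifted in the nuclear fraction with doxycycline over none and 3 between the fractions without it. With the reads without doxycycline subtracted 4 were shifted between the fractions with it, miR-125a (3.00), miR-339 (-1.94), miR-331 (-1.61) and miR-362 (-1.45). For miR-331 no nuclear 5p read was left, and that 0 was set to 3 reads over the group. The call of miR-450a (-1.84) was lost. That subtraction put the 5p share in the nuclear and total fractions with doxycycline at 98.9% and 92.0% for miR-125a and 96.4% and 93.7% for miR-671, and at 68.7% for nuclear miR-339.

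Single arms between the fractions with doxycycline numbered 5 lower without scaling, 11 higher and 4 lower with no filter, 0 higher and 1 lower at a minimum of 30, and 0 higher and 4 lower after the subtraction. In the nuclear fraction with doxycycline over none there were 7 higher by library totals, 30 higher and 1 lower without scaling, 19 lower by totals without miR-805, and 19 higher and 24 lower with no filter. In the total fraction there were 35 higher and 0 lower without scaling, 1 higher by totals without miR-805, 16 higher with no filter and 5 lower at a minimum of 30. Between the fractions without doxycycline there were 3 higher and 1 lower by library totals, 14 higher and 1 lower with no filter, and 2 higher at a minimum of 30. Without scaling, log2 folds turned to 0.13 for miR-125a-3p, 0.38 for miR-339-5p and 0.44 for miR-582-3p in the nuclear fraction, and to 0.044 for miR-878-3p, 1.25 for miR-671-3p, 1.29 for miR-125a-3p, 1.85 for miR-582-3p and 2.85 for miR-339-3p in the total fraction, where the median of all entries was 4.01 and 5.05. A higher minimum leaves fewer arms to count and no filter more; the cause of the other differences was not tested. At the minimum of 30 the median share of the less read arm was 27.6% nuclear and 17.8% total with doxycycline, and 6.33% and 5.73% without it. The other counts stayed within 1.5 times. Of the values of named hairpins and arms 317 kept the same label, 12 newly passed, 15 no longer passed, 7 moved beyond their interval and 8 were reversed. A kept label does not mean an unchanged value. The miR-582 shift between the fractions with doxycycline kept its label while it went from -0.76 to 0.55 after the subtraction. Arm shares and shifts do not depend on scaling. The number of miRNA reads limits the columns without doxycycline most, where 6 total hairpins could be read.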
